A study of Mus musculus with 6 samples.

Results

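Protein kinase C (PKC) was described here through the genes Prkca, Prkcb and Prkce, which encode the alpha, beta and epsilon isoforms. They are 3 of the 7507 genes counted in spatially barcoded RNA libraries of the adult mouse hippocampus. They were picked by name, with their values in the dentate gyrus (DG) and the CA1 of these libraries known. Their difference between the regions is therefore given as a description, without a test.

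In the BALI-Multiome experiment, light-directed ligation wrote a 4-digit barcode onto cDNA inside tissue. By design, only molecules under an illuminated area receive the code of that area. On coated slides the study measured a low level of uncaging outside lit areas, and how far codes strayed between the regions was not tested here. The source was frozen brain of adult mice, and no genetic or drug treatment is named. The labels give an age of 12 weeks, whereas the growth protocol gives 8 to 12 months. In each of 3 sections the granular layer of the dentate gyrus and the CA1 were barcoded separately, giving 3 DG and 3 CA1 libraries paired by section. The study speaks of biological replicates, but neither it nor the labels say whether the sections came from different animals, so spread between sections may be technical. Each library held the RNA of every cell in its area, and a gene at a lower level can mean fewer cells of a type or less RNA per cell, which cannot be told apart here.

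A UMI is a random tag that marks a single captured cDNA molecule. The DG libraries held 4572 to 17999 UMIs and the CA1 libraries 2844 to 9357, and in sections 1, 2 and 3 the DG library was 1.92, 1.61 and 1.29 times as deep as its CA1 partner. All levels are therefore given as a share of the UMIs of a library. Exact (Clopper-Pearson) two-sided 95% intervals on these shares cover counting error only. For a count of 0 the limit used in the text is 3 UMIs of the library, a one-sided limit that lies below the upper end of the two-sided interval. The markers of dentate granule cells (7 of 11 listed genes were counted) took 0.318% to 0.333% of UMIs in the DG and 0.192% to 0.316% in the CA1. They were higher in the DG in 3 of 3 sections, mostly through Camk2b and Neurod2. Of single genes with at least 10 UMIs over the libraries, 13.8% show that order. Dock10, Synpr and Trpc6 had UMIs in DG libraries only, Calb1 in CA1 libraries only, and Stxbp6 in both. The defining granule cell genes Prox1 and C1ql2 were on the list but were not among the genes counted. The markers of CA1 pyramidal cells (7 of 9) were sparse, with 8 UMIs in the DG and 14 in the CA1, and were higher in the CA1 in 2 of 3 sections. Of these, Wfs1 and Neurod6 had 0 UMIs in the DG and 2 each in the CA1, all in section 1, whereas Pou3f1 had 2, 2 and 2 UMIs in the DG libraries against 4, 0 and 0 in their CA1 partners. From this same experiment the study reports Camk2b, Neurod2 and Synpr for the DG, and Wfs1, Neurod6 and Mpped1 for the CA1. These markers are therefore no independent check of the regions.

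PKC enzymes are serine/threonine kinases that carry the signal of receptors coupled to Gq. Such receptors activate phospholipase C, which splits a membrane lipid into IP3, a soluble messenger that releases stored calcium, and diacylglycerol, which stays in the membrane and recruits PKC. The conventional isoforms alpha and beta need both calcium and diacylglycerol, epsilon answers to diacylglycerol without calcium, and the atypical isoform zeta needs neither. In hippocampal neurons PKC activity is known for its part in synaptic plasticity and transmitter release, and epsilon is known for its presence in axons.

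The 3 genes are long. On GRCm38.p6, the assembly behind mm10, RefSeq places Prkca at chr11:107933387-108343888 on the minus strand, Prkcb at chr7:122289104-122634402 on the plus strand and Prkce at chr17:86167785-86657919 on the plus strand. They span 410.5, 345.3 and 490.1 kb against a median of 29.7 kb for the genes counted, and only 3.08%, 4.08% and 2.18% of those genes are at least as long. Their exons add up to 8369, 10009 and 6414 bases (median 4302). Reads were counted on exons without regard to strand, and none of the genes that overlap the 3 in the annotation shares an exonic base with them. Of the 50-base stretches in their longest transcripts, 0% in Prkca, 0.522% in Prkcb and 0.548% in Prkce also occur in the longest transcript of another gene, mostly as dinucleotide repeats. Exons outside the longest transcripts were not compared. Runs of at least 10 adenines, to which a poly-T primer can anneal inside a transcript, number 1 in Prkca, 1 in Prkcb and 2 in Prkce, and 27.1% of the genes counted hold at least 1. Whether such runs bear on the levels was not tested.

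Prkcb was the most abundant of the 3 genes in both regions. With 159 UMIs over the 6 libraries it ranked 15 among the 7507 genes, ahead of Prkce with 57 UMIs (rank 65) and far ahead of Prkca with 6 UMIs (rank 1563). In the DG, Prkcb had 45, 20 and 15 UMIs in sections 1, 2 and 3, shares of 0.25%, 0.437% and 0.238% (mean 0.309% ± 0.112, SD, n = 3). In the CA1 it had 49, 15 and 15 UMIs, shares of 0.524%, 0.527% and 0.308% (0.453% ± 0.125, SD, n = 3). The CA1 share was above the DG share in 3 of 3 sections, by 2.09, 1.21 and 1.29-fold, and the mean share was 1.47-fold higher in the CA1. The groups overlapped nevertheless, since the DG of section 2 stood above the CA1 of section 3. Among the 999 genes with at least 10 UMIs over the libraries, 11.8% had a lower share in the DG in 3 of 3 sections, the order that Prkcb shows. Only in section 1 were the counting intervals apart, at 0.182% to 0.334% in the DG and 0.388% to 0.692% in the CA1.

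Prkce stood the other way, with most of its UMIs in the DG. It had 37, 8 and 6 UMIs in the DG of sections 1, 2 and 3, shares of 0.206%, 0.175% and 0.0953% (0.159% ± 0.0569, SD, n = 3). The CA1 libraries held 5, 0 and 1 UMIs, shares of 0.0534%, 0% and 0.0206% (0.0247% ± 0.0270, SD, n = 3). Every DG library lay above every CA1 library, the lowest DG share, in section 3, exceeding the highest CA1 share, in section 1, by 0.0418 percentage points. The DG share was 3.85-fold higher in section 1 and 4.63-fold higher in section 3, where the CA1 share rests on 1 UMI. In section 2 the CA1 count was 0, and the DG share was 1.66 times the limit of 3 UMIs. That value is not a lower bound, since the DG interval there (0.0756% to 0.344%) reaches below the limit of 0.105%. Between the mean shares the ratio was 6.43. The intervals were apart in section 1 (0.145% to 0.283% against 0.0174% to 0.125%) and overlapped in sections 2 and 3. As background, 7.11% of the 999 genes had every DG share above every CA1 share and 13.8% had a higher DG share in each section. Nothing is read from the place of Prkce among them, because it was picked with this contrast known.

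**Figure D1:**
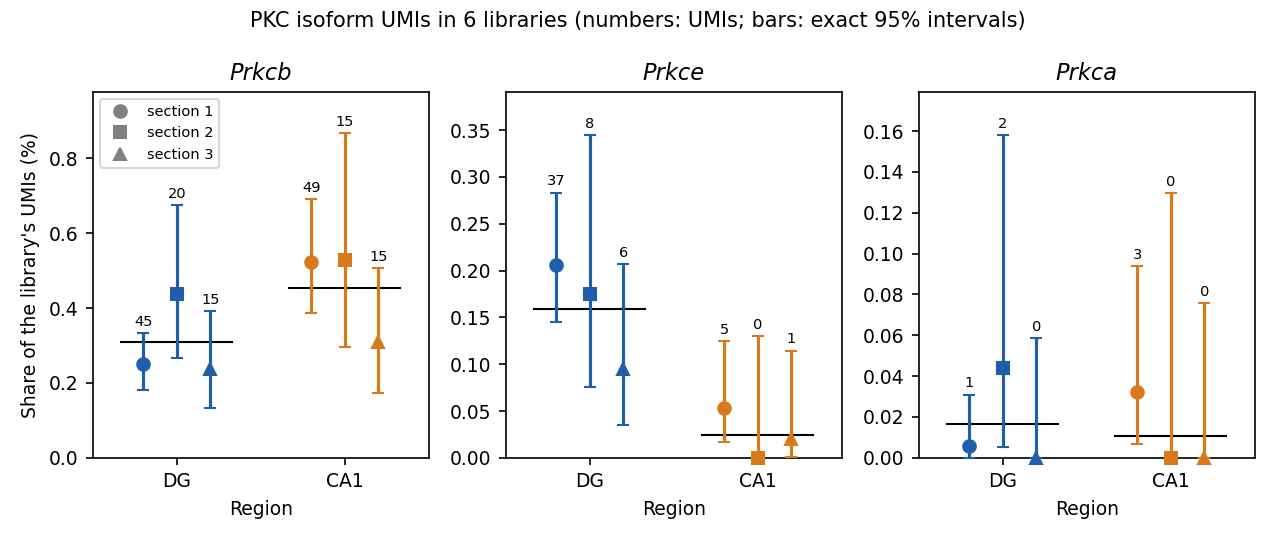
Share of the UMIs of a library (percent, linear axes of different range) taken by Prkcb, Prkce and Prkca in the DG (blue) and the CA1 (orange). Points are libraries, symbols are sections, bars are exact 95% counting intervals, the number over each bar is the UMI count and black lines are means of 3 libraries. Prkcb overlaps between the regions, the 3 DG libraries of Prkce (0.0953% to 0.206%) lie above the 3 CA1 libraries (0% to 0.0534%), and Prkca has at most 3 UMIs in a library.

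Prkca was near the limit of detection. It had 1, 2 and 0 UMIs in DG libraries against 3, 0 and 0 in CA1 libraries, pooled shares of 0.0104% (interval 0.00214% to 0.0304%) and 0.0176% (0.00363% to 0.0514%). With 0 UMIs in 3 of the 6 libraries, no difference between the regions was detectable at this depth, and neither library of section 3 held a single UMI. By the limit of 3 UMIs, the count of 0 in the CA1 of section 2 allows a share of up to 0.105%, above the share of Prkce in the DG of section 3, so even a level like that of Prkce could have gone unseen there.

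Levels were compared between the genes per kilobase of exon. UMIs taken from transcript ends may not scale with length, which was not tested, so the values without length are given too. On this scale Prkcb reached 308 ± 112 CPM (counts per 1000000 UMIs of the library) in DG libraries against 453 ± 125 in CA1 libraries, Prkce 247 ± 88.8 and 38.5 ± 42.0, and Prkca 19.6 ± 28.5 and 12.8 ± 22.1 (SD, n = 3 libraries). In the DG, Prkcb and Prkce thus lay within their spread of each other, and in the CA1 they were far apart, while the values of Prkce and Prkca in the CA1 overlapped. Over both regions of a section, Prkcb exceeded Prkce by 1.74 ± 0.70 on the log2 scale of UMIs per kilobase with 0.5 added to each count (3.34-fold, SD over 3 sections), and by 2.38 without the length. Prkcb exceeded Prkca by 4.18 ± 0.48 (18.2-fold; 4.44 without the length), and Prkce exceeded Prkca by 2.44 ± 1.02 (5.43-fold; 2.06 without the length). All 3 orders held in 3 of 3 sections. The exact two-sided sign-flip permutation test gave p = 0.25 for each, also after adjustment over the 3 pairs, which is the smallest p that 3 sections allow, so this test could not have passed and adds nothing to the counts. These means join unlike values. Prkcb over Prkce was 0.29 in the DG libraries alone and 3.19 in the CA1 libraries alone, and Prkce over Prkca was 3.75 and 1.13. Prkcb over Prkca was 4.05 and 4.32.

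Within a library, the ratio of Prkce to Prkcb does not depend on depth. It was 0.822, 0.400 and 0.400 in the DG of sections 1, 2 and 3 (0.541 ± 0.244, SD, n = 3) against 0.102, 0 and 0.0667 in CA1 libraries (0.0562 ± 0.0518). Written as the share of Prkce in the UMIs of both genes, the DG libraries gave 45.1% (exact 95% interval 34.1% to 56.5%), 28.6% (13.2% to 48.7%) and 28.6% (11.3% to 52.2%). The CA1 libraries gave 9.26% (3.08% to 20.3%), 0% (0% to 21.8%) and 6.25% (0.158% to 30.2%). Each DG library thus lay above each CA1 library, but only in section 1 were the counting intervals of a section apart. Summed over sections, Prkce made up 38.9% of the pair in the DG (51 of its UMIs beside 80 of Prkcb) and 7.06% in the CA1 (6 beside 79). The log2 ratio, with 0.5 UMI added to each count, was higher in the DG by 2.89, 3.68 and 2.12 in the 3 sections (mean 2.90 ± 0.78, SD, n = 3, a 7.45-fold difference). The size of the section 2 value depends on the 0.5 added to a CA1 count of 0, and section 3 rests on 1 UMI of Prkce in the CA1. With 1 UMI added to each count, the mean was 2.46. Corrected for exon length, Prkce in the DG of section 1 exceeded Prkcb by a ratio of 1.28, the only library in which it did, and in the other DG libraries the ratio was 0.624.

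**Figure D2:**
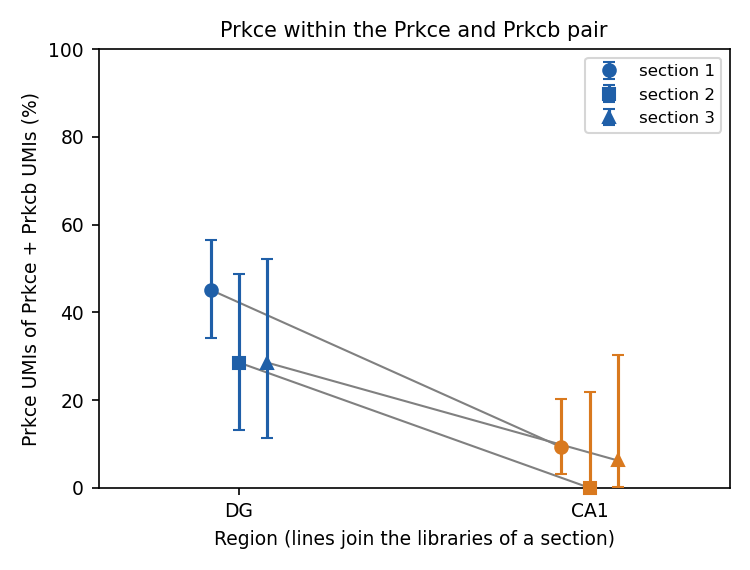
Prkce UMIs as a percentage of Prkce plus Prkcb UMIs in each library. Blue marks the DG, orange the CA1, symbols and joining lines mark the section, and bars are exact 95% counting intervals. All 3 lines fall from the DG (28.6% to 45.1%) to the CA1 (0% to 9.26%).

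Summed, the 3 genes and Prkcz had a mean share of UMIs that was close in both regions. Prkcz, the atypical zeta isoform, had 3, 0 and 3 UMIs in DG libraries against 0, 1 and 0 in CA1 libraries and was too sparse to test. The 4 genes together made up 0.478%, 0.656% and 0.381% of the UMIs in the DG (0.505% ± 0.140, SD, n = 3) and 0.609%, 0.563% and 0.329% in the CA1 (0.5002% ± 0.150), a ratio of 1.01 between the means. The summed share was higher in the DG in 2 sections and lower there in section 1, and the groups overlapped widely.

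**Figure D3:**
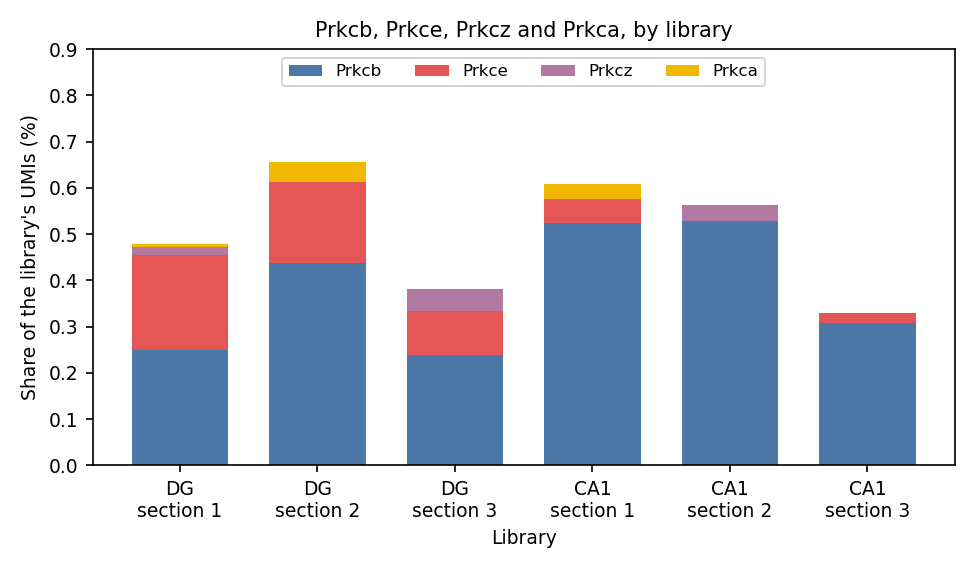
Share of the UMIs of each library (percent) taken by Prkcb, Prkce, Prkcz and Prkca, stacked by gene. The bars reach 0.381% to 0.656% in the DG and 0.329% to 0.609% in the CA1, with Prkcb the tallest part of every bar and Prkce a visible part mainly in the DG.

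The fit across genes placed these values beside the spread of the whole table. edgeR's quasi-likelihood test of DG against CA1 covered 999 genes with at least 10 UMIs over the 6 libraries and called 0 of them (0%) at a Benjamini-Hochberg adjusted p under 0.05, with 53 at an unadjusted p under 0.05. DESeq2 also called 0, with 17 unadjusted. Of the 3 PKC genes, 2 passed the filter, and Prkca did not. Prkce passed it through the DG, since its CA1 count of 6 alone would not have. The fitted log2 fold change of DG over CA1 was 2.26 (SE 0.60) for Prkce and -0.61 (SE 0.31) for Prkcb, against a median of 0.06 over all genes tested. By size, 3.20% of genes lay at or above Prkce and 18.4% at or below Prkcb. With section as a replicate block, the values were 2.23 (SE 0.51) and -0.68 (SE 0.25), and 1 of the 999 genes (0.1%) was called. That gene was Prkce, and as it was picked with this contrast known the call is no test of it. Without CA1 replicate 1 the fitted value of Prkce was 3.70, and for Prkcb it was -0.28 without CA1 replicate 1 and -0.15 without both libraries of replicate 1. On the scale of the deposited counts, which carry 1 extra count for every gene, Prkce averaged 914 ± 513 CPM in DG libraries against 205 ± 135 in CA1 libraries (SD, n = 3), a ratio of 4.47. This was the highest ratio of the 7507 genes on that scale. The size of a ratio picked as known to be high may be overstated. The ratios on that scale were 0.810 for Prkcb and 0.963 for Prkca.

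**Figure D4:**
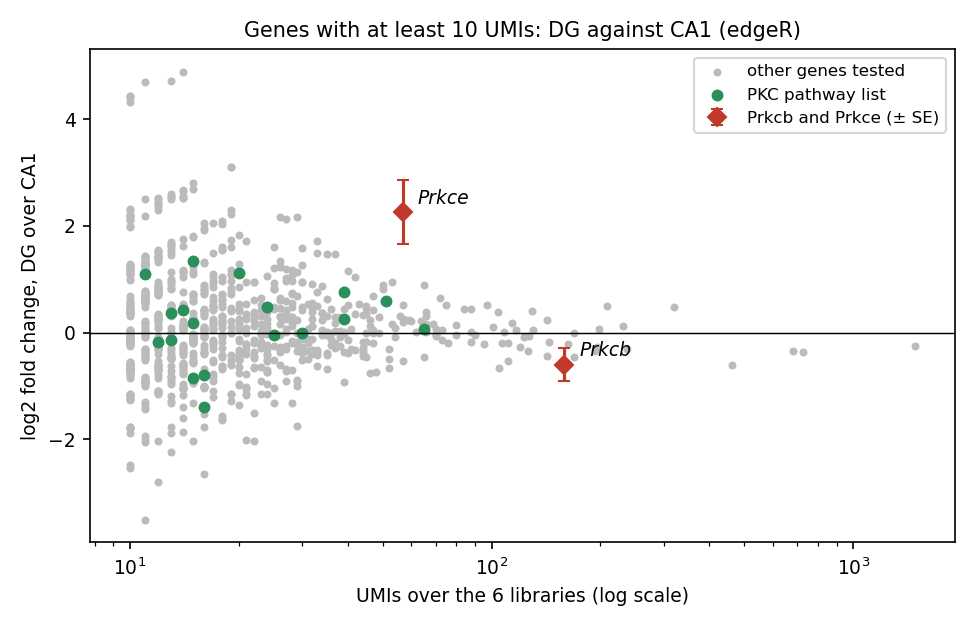
Fitted log2 fold change of DG over CA1 (edgeR) against UMIs over the 6 libraries (log axis) for the 999 genes tested, with the genes of the PKC pathway list in green and Prkcb and Prkce in red with their SE. Prkce lies at 2.26 with 57 UMIs and Prkcb at -0.61 with 159 UMIs, and the pathway genes lie between -1.40 and 1.33.

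The genes that act with PKC gave no call, as did all other genes tested. Of 81 genes on a list of PKC signalling, 50 were counted and 18 had enough UMIs to test, of which edgeR called 0 (0 at an unadjusted p under 0.05), with 11 fold changes above 0 and 7 below. Over all 999 genes, 0 were called, 53 had an unadjusted p under 0.05 and 53.1% had a fold change above 0. Their median log2 fold change was 0.22, against 0.06 over all 999 genes. The largest, 1.33 for Itpr1, the main neuronal IP3 receptor (4, 5 and 3 UMIs in the DG against 2, 1 and 0), and the smallest, -1.40 for the anchoring protein Akap9 (5, 0 and 1 against 7, 1 and 2), rest on few UMIs, and the adjusted p was 1.00 for every gene on the list.

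Upstream of PKC, the receptor best covered was Grm5, the metabotropic glutamate receptor mGluR5, with 19, 5 and 5 UMIs in DG libraries against 5, 2 and 3 in CA1 libraries. Its DG share was above its CA1 share in every section, as for 13.8% of the genes tested, at 0.0981% ± 0.0163 against 0.0618% ± 0.00844 (SD, n = 3), with a fitted log2 fold change of 0.77 (SE 0.62). The muscarinic receptor Chrm3 had 7, 2 and 6 against 5, 1 and 4 UMIs (-0.05, SE 0.71). Gnaq, the Gq alpha subunit that couples these receptors to phospholipase C, had 26, 3 and 8 UMIs against 7, 3 and 4 (0.60, SE 0.53), with the DG share above the CA1 share in 2 of 3 sections. The phospholipase C step itself was barely sampled. Of 14 such genes on the list, 4 were counted, with 12 UMIs in all, and none could be tested.

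Beside PKC, other proteins bind or consume diacylglycerol. Dgkg, a diacylglycerol kinase that removes the lipid by phosphorylation, had 16, 1 and 2 UMIs in DG libraries against 9, 1 and 1 in CA1 libraries. Its fitted log2 fold change was 0.00. The SE of 0.23 does not measure its precision, because SEs were computed from the fold change, which here is nearly 0. Unc13a, the vesicle-priming protein Munc13-1, had 12, 4 and 1 against 3, 2 and 2 (0.47, SE 0.78). Both genes had values in the DG and the CA1 that overlapped.

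Downstream, 7 of 8 listed substrates were counted and the 4 tested had fold changes above 0, as had 53.1% of all genes tested, and none passed. Nrgn, neurogranin, a postsynaptic calmodulin-binding substrate, had 34, 5 and 3 UMIs in DG libraries against 15, 2 and 6 in CA1 libraries (log2 fold change 0.06, SE 0.45). Basp1, a membrane-bound substrate of growth cones, had 16, 4 and 6 against 5, 1 and 7 (0.26, SE 0.59). Add2, beta-adducin, which caps actin and binds spectrin, had 13, 2 and 1 against 2, 1 and 1 (1.12, SE 0.89). In each of these the DG library of section 1 held the highest count, as it did in total UMIs.

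The genes whose log2 CPM followed Prkcb most closely over the 6 libraries, among 360 genes with at least 20 UMIs, were Flrt1 (Pearson's r = 0.96), R3hdm4 (r = 0.93) and Rn45s (r = 0.88). Flrt1, a cell surface protein with leucine-rich repeats, had 5, 3 and 1 UMIs in DG libraries against 8, 2 and 2 in CA1 libraries. Rn45s is the ribosomal RNA precursor, a repeated gene whose reads cannot be placed on 1 copy. For Prkce they were Gapdh (r = 0.97), Ubn2 (r = 0.95) and Xist (r = 0.94). Gapdh, a glycolytic enzyme with many pseudogenes that can share its reads, had 16, 3 and 2 UMIs against 4, 0 and 1. Ubn2, which belongs to a histone chaperone complex, had 15, 5 and 4 against 4, 0 and 2. These are the closest of many genes over 6 libraries that share section, depth and region, and are a description only.

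Markers of other cell types were measured in the same libraries. Oligodendrocyte markers (8 of 10 genes) took 0.503% to 0.800% of UMIs in the DG and 0.738% to 0.994% in the CA1 and were higher in the CA1 in 3 of 3 sections. Prkcb and the sparse endothelial markers had the same order, as had 11.8% of the 999 genes tested. Astrocyte markers (6 of 9) took 0.240% ± 0.0448 in DG libraries against 0.239% ± 0.0535 in CA1 libraries (SD, n = 3). Interneuron markers (5 of 10) had 12 and 7 UMIs, microglial markers (3 of 9) 2 and 2, and endothelial markers (5 of 8) 4 and 6, in the DG and the CA1. The part of the granule cell, oligodendrocyte and endothelial markers, or of the depth of the libraries, in the values of Prkce and Prkcb was not tested.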

How the data were processed

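RNA counts of 3 BALI-Multiome sections were used, each with a DG and a CA1 library. The chromatin accessibility libraries of the same tissue were not used here. The authors extracted UMIs with UMI-tools, sorted reads by barcode with cutadapt 4.1, mapped them to mm10 with STAR 2.7.9a, assigned them to exons with featureCounts (Subread 2.0.3, default options) and deposited UMI counts per gene, each raised by 1 for all genes and libraries. This 1 was taken off before all steps. A line of column totals was dropped. The deposited CPM, fold and log10 ratio columns were not used.

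For DG against CA1, genes were fitted in R 4.3.3 with the quasi-likelihood method of edgeR 4.0.16 (on limma 3.58.1) after TMM scaling. The fit used genes with at least 10 UMIs over the 6 libraries, since edgeR's own filter by region leaves out all genes of the PKC pathway list. Benjamini-Hochberg adjustment ran over all genes tested, with a threshold of 0.05. Per-kilobase levels used the union of RefSeq exons (GRCm38.p6, 7187 of 7507 symbols matched) and an exact permutation test over sections (scipy 1.17.1 under Python 3.11.15). DESeq2 1.42.0 was an alternative, and simulated counts were used to test the edgeR script. Counting limits for a count of 0 are 3 UMIs of the library.

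The section number pairs the libraries, because DG and CA1 were barcoded in one and the same slice. Deviations from the region means correlated within sections 1, 2 and 3 at 0.168, 0.0566 and 0.0766 over 999 genes. The study averages replicates within a region, so the fit without the block was the chosen one.

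The members and the gene lists were chosen with earlier results of these data known. The genes named were the 3 members, Prkcz, pathway genes with at least 20 UMIs (and, after their values were seen, the pathway genes with the largest and smallest fold change), and the 3 genes closest to a member by correlation. This last rule was not applied to Prkca, which has 6 UMIs. Some listed genes are not reported here by name.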

Additional observations from a re-analysis of the deposited data

How the results depend on the processing

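The count of genes called was 0 and stayed 0 in 15 of 19 alternatives, among them other size factors, no filter, DESeq2, the counts as deposited and each replicate or library left out in turn (0 to 0). It was 1 (Prkce) with at least 20 UMIs, 1 (Prkce) with the replicate block, 1 (Prkce) with the replicate block and no filter, and 2 (Fth1, a ferritin subunit named for this count alone, and Prkce) with the replicate block and total UMIs, a combination chosen after seeing the data, as were the counts as deposited. What causes these differences was not tested. With total UMIs and no block, 0 genes were called, so Fth1 too was called only with the block. The pathway list had 0 genes called in all 18 alternatives that gave a value. Its median moved from 0.22 to -0.45 without DG replicate 1, -0.18 without replicate 1 and 0.49 without replicate 3, so its sign rests on which libraries are used. edgeR's own filter by region left none of the pathway genes and, of the members, only Prkcb.

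The log2 fold change of Prkce ranged from 1.84 to 3.70 over 18 alternatives, that of Prkcb from -0.81 to -0.15 over 19, and the log2 difference of the Prkce to Prkcb ratio from 2.34 to 3.29 over 12. All kept their sign. For Prkce and the ratio, leaving out libraries could hardly reverse it, because every DG library lay above every CA1 library. The kept sign adds no evidence for members picked with this contrast known. With counts as deposited, the mean share of Prkcb was 0.175% in place of 0.381%. Depth limits these results: in the CA1 library of section 2, the limit of 3 UMIs for a count of 0 is 0.105% of UMIs.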
